A study of Mus musculus with 2 samples.

Results

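The endocardial cushion regulators are 6 mouse genes, Tgfb2, Nfatc1, Snai1, Twist1, Sox9 and Tgfbi, each taken with a fixed window of the mm9 genome around it. H3K27ac, a histone mark of active promoters and enhancers, had been mapped by ChIP-seq in sorted cells of E10.5 mouse hearts, and a peak belonged to a gene's window when its midpoint lay inside. Of 154664 called peaks in all, 185 fell in the windows, 128 from the atrioventricular canal (AVC) list of 87572 and 57 from the chamber list of 67092. The AVC sample was EGFP-positive cells and the chamber sample Katushka-positive cells, both from FVB/N mice that carried EGFP and Katushka together, so both reporters were present in both groups. The sources used here do not give what drives each reporter, whether embryos were pooled or which cell types a sort contained. For each tissue there was a single library, so no difference below has a replicate check and none was tested. The genes were chosen by name, but with earlier peak counts of these libraries in view, among them an excess of AVC peaks beside Tgfbi. The peak counts and AVC share of each window, and their rank among other stretches of the genome, are therefore descriptions and support nothing.

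The endocardial cushions are swellings of the heart wall in the AVC and the outflow tract, and those of the AVC later form the atrioventricular valves and septum. Signals from the AVC myocardium, among them TGF-beta and BMP ligands, make endocardial cells leave their sheet and invade the matrix as mesenchyme. TGF-beta 2, the product of Tgfb2, is one of these ligands. NFATc1 is a transcription factor of the endocardium that lines the forming valves, Snail (Snai1) and Twist1 are transcription factors that switch cells to the mesenchymal state, SOX9 is needed for the cushion mesenchyme to expand, and the product of Tgfbi is a secreted matrix protein induced by TGF-beta. In sorted bulk cells, fewer acetylated cells and less acetylation per cell cannot be told apart, and endocardial, mesenchymal and myocardial shares of the sorts were not measured. Marker loci of these cell types were not examined, because no mm9 annotation was used here.

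The promoters of Tgfb2 and Tgfbi are shown because these windows held 85 of the 128 AVC peaks. The sequences are RefSeq's, from 250 bases before to 50 after the gene start, in the GRCm38.p6 build. That is another build than that of the peaks, so the positions cannot be set against them, and whether a peak covers either promoter was not determined. Capitals mark matches on either strand to any of 8 motifs: CANNTG (E-box), CACCTG (the E-box form bound by Snail), AGATAA (for GATA factors), GGTGTGA (for T-box factors), GGAAAA (NFAT), ACAAAG (SOX), GTCTAGAC (SMAD) and GTGGGAA (RBPJ). Every CACCTG is also a CANNTG.
Tgfb2, chr1:186705940-186706239, minus strand: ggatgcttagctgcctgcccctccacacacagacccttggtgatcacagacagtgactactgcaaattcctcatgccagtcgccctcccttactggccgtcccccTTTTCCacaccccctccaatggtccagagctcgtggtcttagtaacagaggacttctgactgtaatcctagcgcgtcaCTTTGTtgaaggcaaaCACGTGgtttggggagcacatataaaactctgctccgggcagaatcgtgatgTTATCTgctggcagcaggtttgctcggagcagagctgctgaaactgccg
Tgfbi, chr13:56609336-56609635, plus strand: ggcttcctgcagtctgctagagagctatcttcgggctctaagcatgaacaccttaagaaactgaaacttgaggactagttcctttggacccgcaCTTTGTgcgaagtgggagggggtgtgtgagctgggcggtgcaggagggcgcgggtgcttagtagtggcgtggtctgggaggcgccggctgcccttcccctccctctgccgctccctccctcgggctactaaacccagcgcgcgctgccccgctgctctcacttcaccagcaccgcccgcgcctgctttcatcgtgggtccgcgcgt

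The table matched 4 of the 6 genes, with Sox9 and Nfatc1 unmatched. The Tgfb2 promoter held 1 E-box, CACGTG, which is not the Snail form, and 1 match each to the GATA, NFAT and SOX motifs. Of 27025 promoters of the same length, 1 per gene symbol, 72.1% held an E-box, 11.4% the GATA, 23.6% the NFAT and 18.7% the SOX motif. The Tgfbi promoter held the SOX motif once and none of the others. The Snai1 promoter held 1 CACCTG, present in 20.03% of promoters, and 1 SOX motif, and the Twist1 promoter held none of the 8. The T-box, SMAD and RBPJ motifs, found in 3.96%, 0.211% and 6.39% of promoters, were in none of the 4. All 4 promoters were richer in G and C than the median promoter (52.7%), at 54.3% for Tgfb2, 63.3% for Tgfbi, 66.0% for Twist1 and 70.0% for Snai1. CpG pairs numbered 10 at Tgfb2, 22 at Tgfbi, 27 at Twist1 and 34 at Snai1, against a median of 7.

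Peaks were spread unevenly over the 6 windows. Tgfb2 had 41 AVC and 26 chamber peaks in 300 kb, Tgfbi 44 and 7 in 200 kb, and Nfatc1 21 and 12 in 210 kb. Sox9 had 12 AVC and 7 chamber peaks in 400 kb, Snai1 4 and 4 in 170 kb, and Twist1 6 AVC peaks and 1 chamber peak in 250 kb. A peak thus came every 4.55 kb (Tgfbi) to 42.5 kb (Snai1) in the AVC and every 11.5 kb (Tgfb2) to 250 kb (Twist1) in the chambers. The genome was cut into tiles of each window's length, keeping tiles with at least 5 peaks over both lists. At least as many AVC peaks as at Tgfbi were found in 0.369% of tiles, as at Tgfb2 in 1.60% and as at Nfatc1 in 7.22%. The AVC counts at Sox9, Twist1 and Snai1 were reached by 56.8%, 74.7% and 87.4% of tiles. In the chambers the Tgfb2 count was reached by 6.66% of tiles, against 20.3% for Nfatc1 and 40.6% for Tgfbi.

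AVC peaks were at least 2 times as many as chamber peaks in 2 of the 6 windows, Tgfbi (6.29 times) and Twist1 (6 times). The same held for 35.1% of 200 kb tiles, so that count is close to the background. The AVC share of called peaks was 86.3% at Tgfbi (95% interval 73.7 to 94.3), 85.7% at Twist1 (42.1 to 99.6), 63.6% at Nfatc1 (45.1 to 79.6), 63.2% at Sox9 (38.4 to 83.7), 61.2% at Tgfb2 (48.5 to 72.9) and 50% at Snai1 (15.7 to 84.3). Intervals are exact Clopper-Pearson, cover counting error only and take neighbouring peaks as independent, which makes them too narrow. The share over both whole lists was 56.6%, and the chromosomes of the genes ran from 50.8% (Sox9) to 61.5% (Twist1). Peaks were called chromosome by chromosome, and the interval of Tgfbi alone lay wholly above the share of its own chromosome, 59.2%. Among neighbours in this order, all intervals overlapped. Tgfbi and Tgfb2, which are not neighbours in it, had intervals that did not overlap (from 73.7 and up to 72.9), a difference that was not tested. Over the 6 windows the AVC share was 69.2% (62.0 to 75.8), and without Tgfbi it was 62.7% (53.9 to 70.9).

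**Figure D1:**
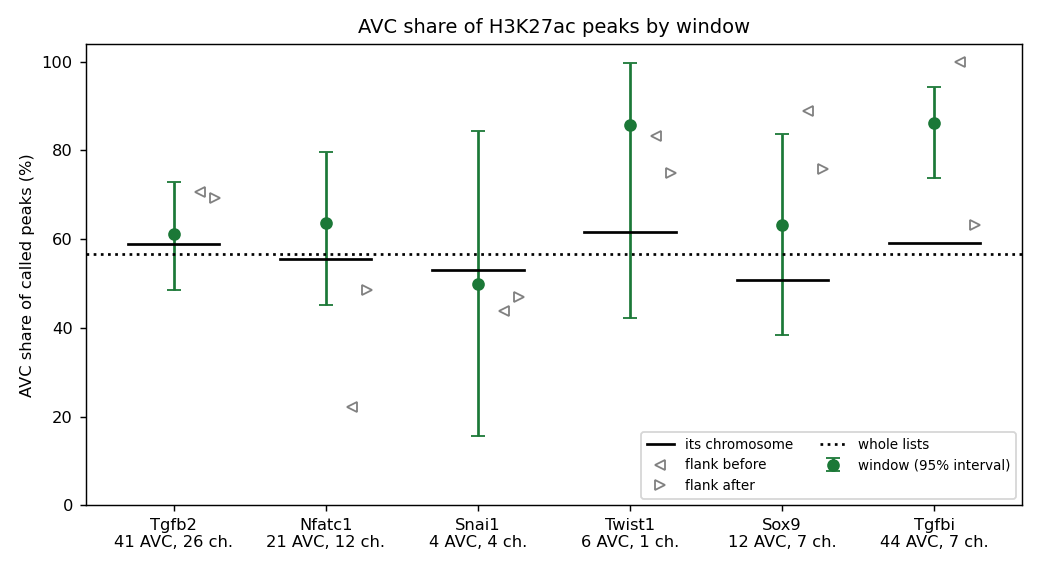
AVC share of called H3K27ac peaks (percent, vertical axis) in each gene window, as a point with its exact 95% interval, with the share of its chromosome as a short line, of the flanks of equal length as open triangles, and of both whole lists as a dotted line. The Tgfbi interval, 73.7 to 94.3%, lies above the line of its chromosome, and the other 5 intervals include theirs.

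The flanks of equal length on either side put these shares in place. At Tgfbi there were 10 AVC peaks and no chamber peak in the 200 kb before the window, and 12 AVC and 7 chamber peaks in the 200 kb after it. The window itself had more AVC peaks than either flank, 44, and no more chamber peaks than the flank after it, 7. At Twist1 the flanks held 10 AVC and 2 chamber peaks before and 6 and 2 after, against 6 and 1 in the window. Around Sox9 the flanks were higher in AVC share than the window, with 8 AVC peaks and 1 chamber peak before and 22 and 7 after. At Nfatc1 both flanks were lower in AVC share than the window, with 4 AVC and 14 chamber peaks before and 17 and 18 after. The Snai1 window, with 4 AVC and 4 chamber peaks, lay between flanks of 14 and 18 and of 15 and 17. At Tgfb2 the flanks held 29 AVC and 12 chamber peaks before and 18 and 8 after.

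**Figure D2:**
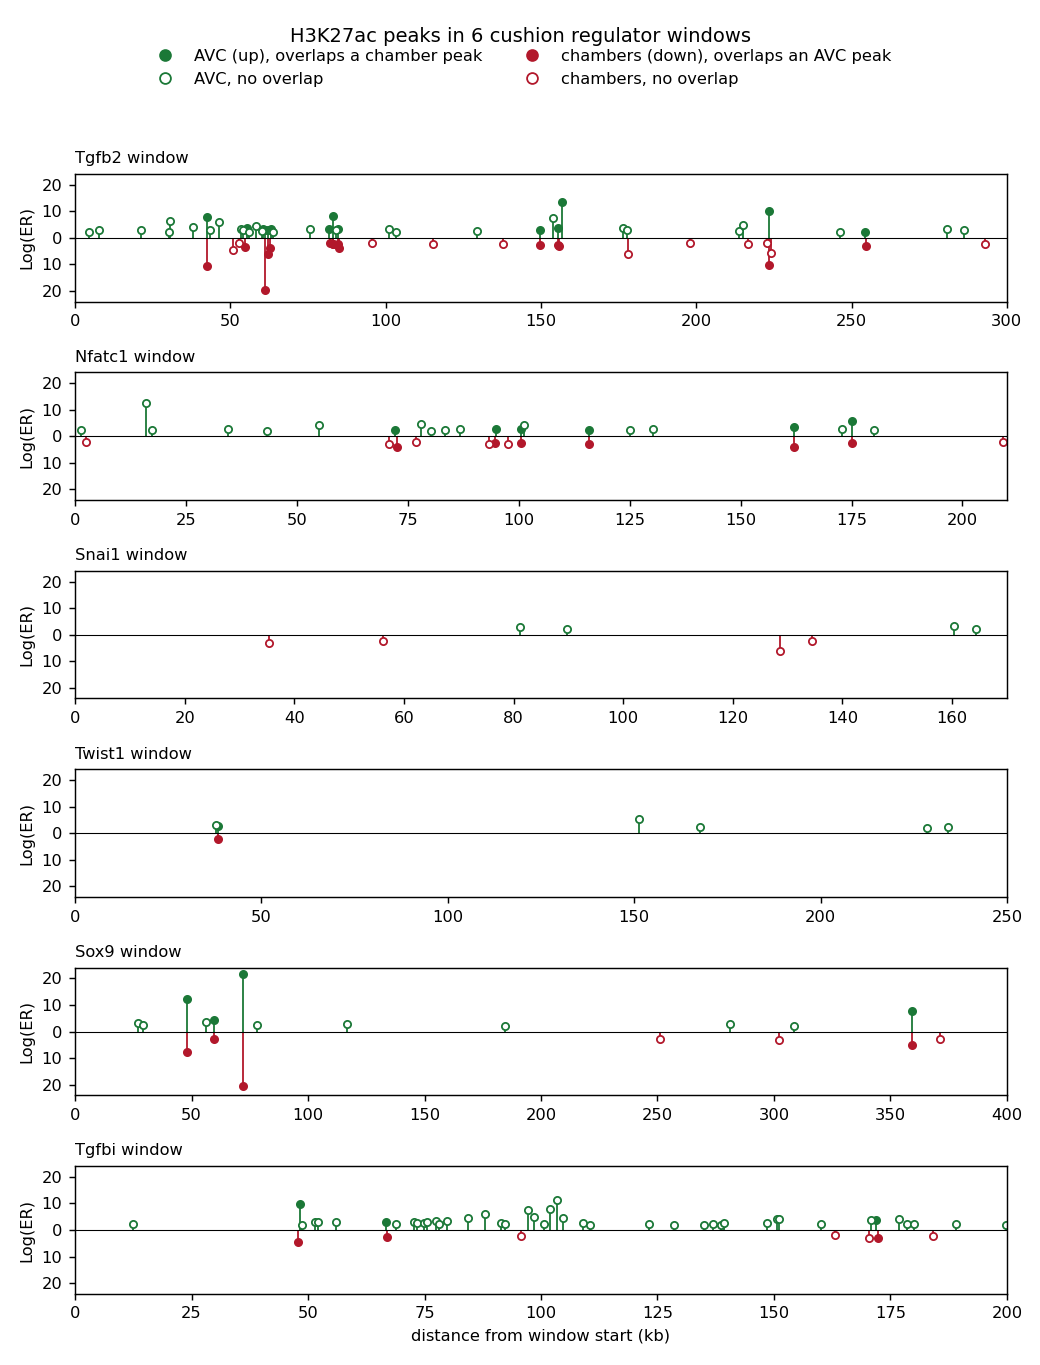
Peaks of the AVC list (upward) and the chamber list (downward) along each gene window, placed by their distance in kb from the window start, with the caller's Log(ER) score as height. Filled points overlap a peak of the other list. Tgfb2 and Tgfbi are dense in AVC peaks, Snai1 has no filled point, and the tallest lines in the Sox9 window, 21.61 (AVC) and 20.32 (chambers), stand at the same place.

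Most AVC peaks of the windows had no chamber partner, as in the whole list. Of the 128 AVC peaks, 100 (78.1%) had no overlap of at least 1 bp with a chamber peak, against 76.8% of all AVC peaks. Of the 57 chamber peaks, 28 (49.1%) had no AVC overlap, against 68.4% of all chamber peaks. Without the Tgfbi window, 59 of 84 AVC peaks (70.2%) and 24 of 50 chamber peaks (48%) had no overlap. Among the 4 windows with over 10 AVC peaks, sharing of AVC peaks was lowest at Tgfbi, with 3 of 44 (6.82%, 1.43 to 18.7). It stood at 14 of 41 at Tgfb2 (34.1%, 20.1 to 50.6), 6 of 21 at Nfatc1 and 4 of 12 at Sox9. The Tgfbi window had only 7 chamber peaks, which limits how many of its AVC peaks could have a partner. Of those 7, 3 overlapped an AVC peak (42.9%, 9.90 to 81.6), against 31.6% of the whole chamber list. The chamber side stood at 15 of 26 at Tgfb2, 6 of 12 at Nfatc1 and 4 of 7 at Sox9. At Snai1 none of the 4 AVC peaks and none of the 4 chamber peaks overlapped (0%, upper bound 60.2%). Over 10 kb from the nearest peak of the other list lay 40 of the 100 AVC peaks without overlap and 9 of the 28 such chamber peaks (32.1%), against 50.9% and 31.3% of such peaks in the whole lists.

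The score, the caller's Log(ER), is set by chromosome in a list, and the whole-number signal value beside it is not scaled between lists, so strength is read within a list. A score of at least 5 was reached by 18 of the 128 AVC peaks (14.1%), against 9.95% of the whole AVC list, and by 10 of the 57 chamber peaks (17.5%), against 18.1% of the chamber list. Tgfb2 had 7 of these AVC and 6 of these chamber peaks, Tgfbi 5 and 0, Sox9 3 and 3, Nfatc1 2 and 0, Twist1 1 and 0, and Snai1 0 and 1. Of the 18 AVC peaks, 12 were at least 500 bp wide (broad) and 6 were under 300 bp (narrow). Most of the 8716 AVC peaks with such scores in the whole list were likewise broad (5163) or narrow (2705). Of the 12 broad ones 4 overlapped a chamber peak (33.3%), against 61.2% of the 5163 such peaks of the whole AVC list. Of the 6 narrow ones 5 did (83.3%), the exception being at Twist1, against 98.1% of 2705 in the list. Tgfb2 accounted for 6 of the broad peaks, Tgfbi for 5 and Nfatc1 for 1, and Sox9 for 3 of the narrow ones.

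**Figure D3:**
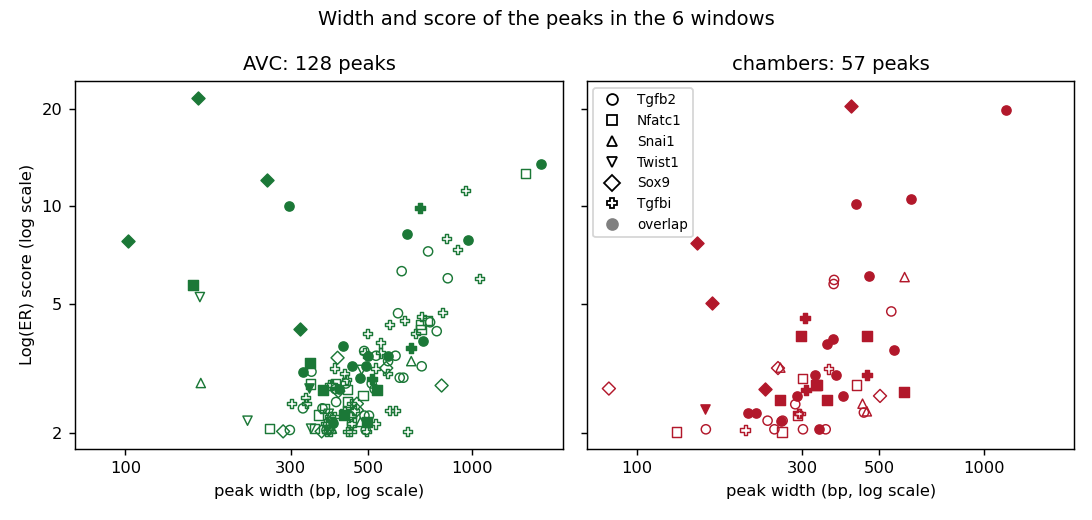
Width in bp (horizontal, log scale) and Log(ER) score (vertical, log scale) of the 128 AVC peaks (left) and 57 chamber peaks (right), with a symbol per gene window and filled symbols for peaks that overlap the other list. On the left, scores of at least 5 occur at 6 peaks under 300 bp and at 12 peaks of at least 500 bp, with none between. In the whole AVC list 2705 and 5163 of the 8716 peaks with such scores have these widths.

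Tgfb2, the gene of the ligand, had the most peaks in both lists together, and the strongest peak of each list lay at a separate place. The strongest chamber peak of the window, at 188410672 to 188411831 on chromosome 1 (1160 bp), had a signal value of 132 and a score of 19.84, at the 98.1 percentile of chamber peaks of the chromosome. Overlapping it, wholly or in part, the AVC list had 3 weak peaks with signal values of 32 to 36 and scores of 2.74 to 3.22. The ratio of the unscaled signal values, AVC over chambers, was 0.242 to 0.273 at these overlaps, each of which sets the whole chamber peak against 1 of 3 AVC peaks of 414 to 494 bp. Their signal values sum to 102, and the ratio of that sum to the chamber value was 0.773. Whether the value counts reads or gives the height of the pile-up is not stated, so how far the splitting into 3 calls lowers the ratio of each pair is unknown. Over all 22319 overlapping pairs of the lists the median ratio was 1.11, with 0.551 and 1.90 as the 10th and 90th percentiles. The 3 pairs taken singly lay at or below the 1.11 percentile, whereas the ratio of the sum, 0.773, lay between the 10th and 90th percentiles. The last of the 3 AVC peaks, at 188411762 to 188412237, lay mostly beyond the strongest chamber peak. It also overlapped another chamber peak, at 188411905 to 188412371, whose signal value of 50 is left out of 0.773. That ratio can therefore be too high for this place, by an unknown amount.

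The strongest AVC peak of the Tgfb2 window lay 95.4 kb further along, at 188505885 to 188507459. It was 1575 bp wide, with a signal value of 106 and a score of 13.51 in the AVC, against 31 and 3.02 for the overlapping chamber peak of 327 bp. The signal ratio there was 3.42, at the 99.2 percentile of all pairs. That chamber peak, at 188505790 to 188506116, covered only the start of the AVC peak, so the ratio sets peaks of unlike extent against each other. Another chamber peak, with a signal value of 28, ended shortly before, at 188505778. Before the strongest AVC peak, one with a score of 7.27, at 188503654 to 188504399, overlapped no chamber peak. The AVC peak at 188432723 to 188433372 (650 bp) had a score of 8.21 and a signal value of 70. The adjoining chamber peaks under it, of 209 and 261 bp, had values of 26 and 25. Each of these sets only a part of the chamber signal there against the whole AVC peak. How far the splitting of the chamber call raises the ratio of each pair is unknown.

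Further places of the Tgfb2 window were strong in both tissues. The peaks at 188573337 to 188573633 (AVC, 297 bp) and 188573254 to 188573681 (chambers, 428 bp) had scores of 10.01 and 10.19. Their signal values were 81 and 73, a ratio of 1.11, the same as the median of all pairs. A further chamber peak, at 188573725 to 188574093 with a signal value of 48 and a score of 5.77, lay 92 bp from the AVC peak. It is not part of that ratio. In the whole AVC list 99.9% of the 2057 peaks that, like this AVC peak, scored at least 10 and were under 300 bp wide overlapped a chamber peak. At 188391967 to 188392937 (AVC) and 188392294 to 188392908 (chambers) the scores were 7.90 and 10.54 and the signal values 68 and 75. The strongest chamber peak of the window without an AVC overlap, at 188527832 to 188528201, scored 5.94 and lay 87 bp from an AVC peak. The 61.2% AVC share of the window sums up places of unlike balance.

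The window of Nfatc1, the gene of the endocardial factor, had many weak peaks and 1 strong AVC peak without a partner. That peak, at 80765167 to 80766590 on chromosome 18, was 1424 bp wide, with a signal value of 112 and a score of 12.62, at the 97.7 percentile of AVC peaks of its chromosome. The nearest chamber peak was 12662 bp away. No chamber peak of the window scored above 4, and 10 of the 12 scored under 3, against 55.5% of the whole chamber list. Of the AVC peaks, 15 of 21 scored under 3, against 65.7% of the AVC list. The second AVC peak by score, 157 bp wide at 80925027 to 80925183, had a signal value of 56 and a score of 5.71, against 28 and 2.54 in the chambers. The third, at 80827692 to 80828434, scored 4.46 and had no chamber overlap, with a chamber peak 659 bp away. The highest chamber scores, 4 each, lay at 80822295 to 80822753 and 80911845 to 80912142, both under AVC peaks, of scores 2.28 and 3.30. The 6 overlapping pairs of the window had signal ratios of 0.763 to 2 with a median of 1.07, near the median of all pairs. By the order of genes in GRCm38 the protein-coding neighbours of Nfatc1 are Ctdp1 and Atp9b, and peaks were not assigned to one or another.

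Snai1, the gene of the Snail repressor, had few peaks in either list. The strongest of the window was a chamber peak of 591 bp at 167408382 to 167408972 on chromosome 2, with a signal value of 50 and a score of 6.06, at the 87.4 percentile of chamber peaks of its chromosome, and the nearest AVC peak was 31090 bp away. The other chamber peaks scored between 2.34 and 3.19. The 4 AVC peaks scored between 2.07 and 3.34, the highest at 167440062 to 167440728, with a signal value of 38. Scores under 3 were found for 3 of the 4 AVC peaks (75%), against 65.7% of the AVC list, and for 2 of the 4 chamber peaks (50%), against 55.5% of the chamber list.

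Twist1, the gene of the other mesenchymal switch factor, had the fewest peaks. Its strongest AVC peak, 164 bp wide at 34651216 to 34651379 on chromosome 12, had a signal value of 49 and a score of 5.26, and the nearest chamber peak was 112777 bp away. The single chamber peak, 157 bp wide at 34538283 to 34538439, scored 2.38 and overlapped an AVC peak that scored 2.76, with signal values of 31 (AVC) and 26 (chambers). The next AVC peak by score, at 34537569 to 34538048, scored 3.14 and lay 235 bp from that chamber peak. From the chamber peak to the end of the window, 211.6 kb, the chamber list had no peak and the AVC list 4, of which 3 scored under 3.

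Sox9, the gene of the mesenchyme factor, had its strongest peaks at the same places in both tissues. At 112522126 to 112522287 (AVC, 162 bp) and 112521970 to 112522384 (chambers, 415 bp) on chromosome 11 the scores were 21.61 and 20.32 and the signal values 222 and 138. At 112498033 to 112498288 (AVC) and 112498138 to 112498286 (chambers) the scores were 12.07 and 7.74 and the signal values 99 and 60. At 112809228 to 112809329 (AVC, 102 bp) and 112809144 to 112809308 (chambers, 165 bp) they were 7.84 and 5.06, with values of 70 and 44. The 4 overlapping pairs had signal ratios between 1.55 and 1.65. At Tgfb2 the range was 0.242 to 3.42, but over 17 pairs, some of them with split broad peaks, so the ranges cannot be set against each other directly. In 2 of the 4 pairs, at 112498033 and 112809228, both peaks were under 300 bp, and the median ratio over the 3284 such pairs of the lists was 1.64. The other 2 pairs, the strongest among them, had a wider peak on one side only. Over the 19035 pairs not both under 300 bp, which include pairs with both peaks wider, the median was 1.04. A median for pairs with a wider peak on one side only was not computed. Nearly all strong narrow peaks of the genome were called in both tissues: of those with a score of at least 10 and a width under 300 bp, 99.9% of 2057 in the AVC list and 99.9% of 1819 in the chamber list overlapped. The part of this class in the Sox9 overlap was not tested. Each of the 4 Sox9 pairs had at least 1 peak under 300 bp.

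The rest of the Sox9 window was sparse. After the strongest peak the chamber list had no peak for 178.8 kb, and the AVC list 3 peaks there, none scoring above 2.70. The strongest AVC peak without a partner scored 3.42, at 112506073 to 112506481, and the strongest chamber peak without one scored 3.18, at 112751870 to 112752124.

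Tgfbi, the gene of the matrix protein, had the densest AVC peaks of the 6 windows. Its 44 AVC peaks covered 11.8% of the 200 kb and its 7 chamber peaks 1.11%. The strongest AVC peaks were at 56702916 to 56703871 on chromosome 13 (956 bp, signal value 92, score 11.19), at 56647838 to 56648545 (708 bp, 82, 9.90) and at 56701419 to 56702259 (841 bp, 70, 7.98). The chamber peak nearest to the first was 6996 bp away, and that nearest to the third 5499 bp. The AVC peak at 56647838 overlapped the strongest chamber peak of the window, at 56647751 to 56648055, with a signal value of 41 and a score of 4.55. The ratio of signal values was 2 there, at the 92.4 percentile of all pairs.

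The AVC peaks of Tgfbi formed a run. Between 56687543 and 56703871, 16.3 kb, there were 8 of them, including all 4 with a score of at least 5 and no chamber overlap, which were 841 to 1049 bp wide. From 56695921 to 56763073, 67.2 kb, 18 AVC peaks and no chamber peak were called. In steps of 20 kb the window held 1, 0, 5, 9, 6, 6, 6, 3, 6 and 2 AVC peaks, against 0, 0, 1, 1, 1, 0, 0, 0, 3 and 1 chamber peaks. Of the 44 AVC peaks of the window 25 scored under 3 (56.8%), against 65.7% of the whole AVC list. The median AVC peak stood at the 61.6 percentile of its chromosome, against 48.3 for the chamber peaks of the window. The AVC median was higher at Tgfb2 (73.6) and Sox9 (63.8), and lower at Nfatc1 (55.8), Twist1 (45.7) and Snai1 (39.1). An AVC share as high as at Tgfbi occurred in 5.33% of the 8682 tiles of 200 kb with at least 5 peaks, many of which hold few peaks, and in 17 (0.673%) of the 2525 tiles with at least 20 peaks, a limit chosen after seeing the data. By the order of genes in GRCm38 the protein-coding neighbours of Tgfbi are Lect2 and Smad5, the second the gene of a signal transducer of the BMP pathway, and peaks were not assigned to one or another.

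**Figure D4:**
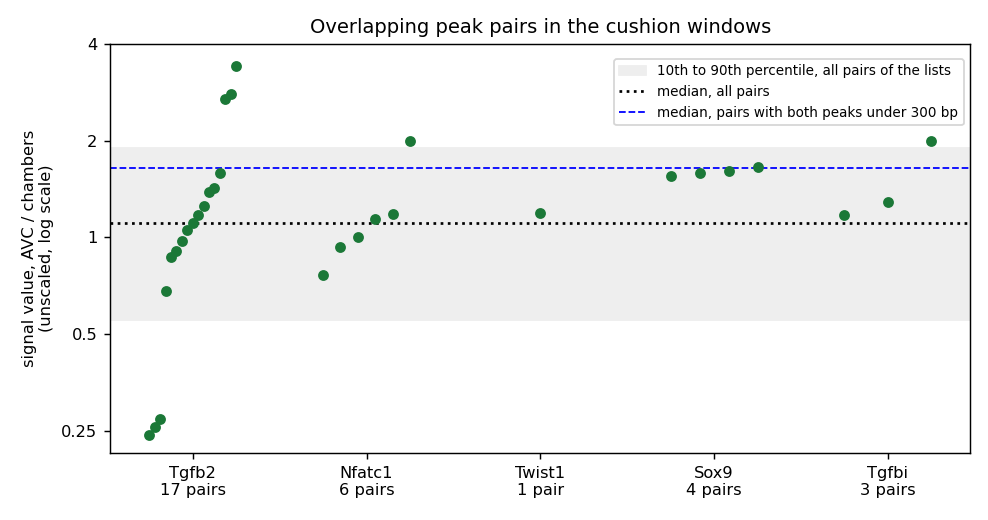
Ratio of the AVC to the chamber signal value (unscaled, log scale) at the 31 overlapping peak pairs of the windows, by gene, where a broad peak can be in more than 1 pair. The band spans 0.551 to 1.90, the 10th to 90th percentile of all pairs. The 4 pairs of Sox9, of which 2 are pairs of narrow peaks, lie between 1.55 and 1.65. The 17 pairs of Tgfb2 run from 0.242 to 3.42, the lowest 3 sharing a single chamber peak.

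Widths followed the lists from which the peaks came. Of the AVC peaks of the windows 49 were at least 500 bp wide and 11 under 300 bp, and of the chamber peaks 7 and 24. The whole AVC list had 41.8% and 9.13% of its peaks in these classes and the chamber list 13.3% and 41.4%. The AVC share of covered bases was above its share of peaks in 5 windows, at 92.5% at Twist1, 91.4% at Tgfbi, 71.9% at Sox9, 71.7% at Nfatc1 and 69.5% at Tgfb2. At Snai1 it was 49.2%, with 1702 bp covered in the AVC and 1757 bp in the chambers. Bases covered in both lists came to 4178 bp at Tgfb2, 1474 at Nfatc1, 626 at Sox9, 520 at Tgfbi, 145 at Twist1 and none at Snai1.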

How the data were processed

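H3K27ac ChIP-seq of 2 sorted cell samples, AVC and chambers, was used as 2 deposited peak lists. Per the submitters' processing notes, Bowtie, SAMtools and mm9 were involved, without stated roles or versions. Per the file headers, peaks were called for each library with OccuPeak 1.3, by chromosome, at a Log(ER) cut of 2, for reads of length 50 and fragments modelled at 60.5 (AVC) and 68 (chambers). Input, depth and pooling are not given in the sources used here. As score the authors deposited this Log(ER), of unstated base. The signal value deposited by the authors is a whole number per peak that the headers do not name and that is not scaled between lists.

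Peaks with midpoints in the 6 windows were counted, and overlap meant at least 1 bp. In no window were peaks assigned to a gene. Tiles are consecutive segments of each chromosome except Y and M with at least 5 peaks. Positions are mm9, counted from 1. The members and lists were chosen with earlier results of these data known. Peaks named are the 3 of highest score per list and window and the highest without overlap. The Tgfb2 and Tgfbi sub-regions and the limit of 20 peaks per tile were chosen after seeing the data. No test was made. Counting was checked on planted peaks. Without an mm9 annotation the planned peaks nearest to gene starts, the further cushion genes and the cell type markers were not analysed here. The tools were scipy 1.17.1, pandas 2.3.3 and numpy 2.4.6 under Python 3.11.15, with matplotlib 3.10.9 for plots.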

Additional observations from a re-analysis of the deposited data

How the results depend on the processing

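The AVC share of peaks stayed inside its main 95% interval under all 6 alternatives at Tgfbi (82.0 to 93.9%), Tgfb2 (50% to 69.6%), Nfatc1 (57.1 to 75%), Sox9 (58.8 to 80%) and Snai1 (33.3 to 66.7%), where at Snai1, Sox9 and Twist1 few peaks leave wide intervals. At Twist1 it was 100% with scores of at least 3 (2 peaks), with widths of at least 300 bp (4) and in the window narrowed by 25% on each side (2). Overlapping AVC peaks numbered 0 at Twist1 with scores of at least 3 or widths of at least 300 bp, and at Sox9 both lists had 0% overlapping at 300 bp, which follows from every pair there having a narrower peak. With a neighbour within 1 kb counted, the shared AVC percentage at Tgfb2 was 53.7%. With equal peak numbers the AVC share of covered bases at Snai1 was 32.1%. These settings leave fewer peaks or, at 1 kb, loosen the overlap, and the cause was not tested further. Leaving out the Tgfbi window, chosen after seeing the data, gave a pooled AVC share of 62.7%. No paired analysis was possible because there was 1 library per tissue. Unknown depth limits what an uncalled peak shows: it does not show that acetylation was absent.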
